A study of Mus musculus with 180 samples.

Results

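The Hox genes are the 39 genes of the embryoid body (EB) expression table whose symbol is Hox, a letter from a to d and a number, out of 31053 genes in that table. Hoxd4 stands there under 2 identifiers, which were summed. Hox genes encode homeodomain transcription factors that give cells their position along the head to tail axis. They lie in 4 clusters in paralog order, and as an embryo gastrulates they switch on from the low-numbered (3′) end, which is used in the anterior body and responds first to retinoic acid, towards the high-numbered (5′) end, used in the posterior trunk, tail and limbs. In pluripotent cells the clusters are classic targets of Polycomb repression, and Hox proteins bind DNA together with cofactors of the PBX and MEIS families. Members are grouped here as anterior (paralogs 1 to 4, 12 genes), central (paralogs 5 to 8, 11 genes) and posterior (paralogs 9 to 13, 16 genes).

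The series compares naive embryonic stem cells (ESCs) and the formative epiblast-like cells (EpiLCs) made from them in the inbred mouse strains D2 and B6, with 3 lines of each strain (D29, D55 and DAC203 for D2; B41, B44 and B51 for B6). It adds 33 BXD lines, which are recombinant inbred offspring of a B6 by D2 cross, in both states, and 3 ESC lines of the F1 hybrid B6D2F1/J (F116, F117 and F124). RNA and open chromatin (ATAC) were measured in both states, and ESC chromatin was immunoprecipitated for TRIM28 (3 lines a strain), P300 and POU5F1 (D29 and D55 against B41 and B51). EB cells labelled as a mixture of B6 and D2 were loaded as 1 pooled single-cell library, after 48 h as EpiLCs, 48 h of aggregation and 48 h of rotation. The pooled samples carried lipid barcodes (hashes). The labels speak of 10 samples, while the hash table has 12 columns, named with D (7 columns: D1, D2, D31, D32, D331, D332 and D333), C (C1 and CB) and B (B1, B2 and B3), and no source used here ties a column to a line or a strain, so the column named D2 is not taken for strain D2. Lines of 1 strain carry separate line names, how far apart they were derived is not stated, and p-values measure the spread between them.

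The RNA values are normalized counts scaled by the authors to library totals between 875000 and 1230000, and the read depth behind them is unknown. Recovered reads in ATAC regions ran from 16277662 to 24346475 in the D2 and B6 lines. For TRIM28 they ran from 5634327 to 6872995 in 5 libraries and reached 17092029 in D55. Bulk RNA is given for 4 Hox genes of the ESC table (Hoxa10, Hoxb9, Hoxc13 and Hoxd13), which has 12730 genes, and for Hoxd13 from the EpiLC table, which has 12735; the other members are not analysed in bulk RNA. The naive genes Klf4 (243 to 258 in D2 and 277 to 314 in B6 ESCs, 3.38 to 5.21 in D2 and 1.74 to 2.05 in B6 EpiLCs) and Esrrb (615 to 686 in D2 and 545 to 597 in B6 ESCs, 24.1 to 30 in D2 and 12.2 to 13.8 in B6 EpiLCs) and the formative gene Pou3f1 (4.88 to 5.8 in D2 and 3.95 to 6.58 in B6 ESCs, 255 to 291 in D2 and 256 to 327 in B6 EpiLCs) went with the labelled states. In EpiLCs the naive gene Zfp42 was also higher in D2 (40.3 to 46.8) than in B6 lines (24.3 to 30), while Tfcp2l1, naive too, overlapped (6.86 to 10.1 in D2 and 6.52 to 8.7 in B6). The formative genes Fgf5 (40.4 to 49.8 in D2 and 22.6 to 30.1 in B6) and Otx2 (38.4 to 43.7 in D2 and 16.9 to 23.1 in B6) were higher in D2 EpiLCs as well, and Dnmt3b (1350 to 1410 in D2 and 1670 to 2030 in B6) was lower, so state genes of both kinds differed between the strains. Their part in the Hox differences of EpiLCs was not tested. Each comparison was fitted over all genes or regions with limma on log2 values, with Benjamini-Hochberg adjustment over the whole table, and a call is an adjusted p under 0.05.

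Promoter sequence was at hand for 22 of the 39 members (RefSeq, GRCm38.p6). The 3 printed here are those whose TRIM28 region was higher in D2 ESCs and overlaps the sequence: Hoxa13 and Hoxd12, which act in the distal limb, genitalia and tail, and Hoxd9, which acts in the trunk. Each line gives the 250 bases before the RefSeq start, 5′ to 3′ on the gene's strand, with every CG dinucleotide in capitals. Hoxa13 is on the minus strand at chr6:52260881-52261130, Hoxd9 on the plus strand at chr2:74697513-74697762 and Hoxd12 on the plus strand at chr2:74674763-74675012.
Hoxa13: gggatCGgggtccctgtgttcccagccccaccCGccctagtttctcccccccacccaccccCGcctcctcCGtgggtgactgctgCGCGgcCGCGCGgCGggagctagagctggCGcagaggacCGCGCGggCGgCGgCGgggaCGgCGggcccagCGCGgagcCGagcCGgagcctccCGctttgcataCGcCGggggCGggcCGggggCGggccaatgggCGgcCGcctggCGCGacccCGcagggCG
Hoxd9: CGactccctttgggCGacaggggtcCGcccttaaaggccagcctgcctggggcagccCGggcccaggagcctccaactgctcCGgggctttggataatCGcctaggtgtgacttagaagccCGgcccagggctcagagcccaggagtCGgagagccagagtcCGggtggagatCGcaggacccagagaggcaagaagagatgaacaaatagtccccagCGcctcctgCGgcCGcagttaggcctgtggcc
Hoxd12: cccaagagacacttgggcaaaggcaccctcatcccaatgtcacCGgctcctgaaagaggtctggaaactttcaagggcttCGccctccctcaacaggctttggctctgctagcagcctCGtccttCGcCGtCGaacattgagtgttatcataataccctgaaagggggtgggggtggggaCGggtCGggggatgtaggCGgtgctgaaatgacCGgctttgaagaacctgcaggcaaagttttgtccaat
These sequences hold 35, 13 and 10 CG dinucleotides in that order. Over windows running from 250 bases before to 50 after the start, the 24 Hox promoters had a median of 14.5 CG (4 to 45), and all 32851 promoters of the table had a median of 7. The motif CCAAT on either strand was in 62.5% of Hox promoters and 37.4% of all promoters, and TATAAA was in 16.7% and 13.6%. TTTATG, a letter string bound by CDX and posterior HOX proteins, was in 20.8% of Hox promoters and 11.9% of all. Such matches describe letters only, and nothing about binding follows from them.

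In bulk RNA of ESCs, the posterior gene Hoxc13 was higher in D2 than in B6 lines and the posterior gene Hoxb9 was lower, and in EpiLCs Hoxd13 was higher. Folds here are on the log2(value + 1) scale, which understates changes of low genes. Hoxc13, known for its role in hair and nails, had an RNA signal of 9.28 in D29, 10.3 in D55 and 10.6 in DAC203, against 7.73, 6.57 and 7.45 in the B6 ESC lines. Its log2 difference was 0.42 (SE 0.12, limma adjusted p = 0.0225), with no overlap between strains. Hoxb9, a thoracic patterning gene, was 1.41, 1.39 and 1.15 in the D2 ESC lines, against 2.18, 2.17 and 2.09 in the B6 lines. The log2 difference was -0.44 (SE 0.15, limma adjusted p = 0.0422), again without overlap. Hoxa10, which patterns the lumbar region and the reproductive tract, was 0.749, 1.01 and 1.11 in D2 ESCs, against 0.476, 0.324 and 0.54 in B6 ESCs (limma log2 difference 0.43, adjusted p = 0.0787). Hoxd13, a gene of the digits, was 2.62, 3.44 and 2.76 in D2 ESCs, against 2.07, 2.13 and 2.37 in B6 ESCs (limma log2 difference 0.30, adjusted p = 0.147). Neither of these last passed the threshold, although the strains did not overlap.

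Thus 2 of these 4 genes were called in ESCs, 1 in each direction, where 37.6% of all 12694 genes tested were called (17.3% higher and 20.3% lower), and the median log2 difference was 0.36 for the 4 and -0.04 for all genes. The Hoxb9 call ended (limma adjusted p from 0.0686 to 0.123) without D29, DAC203, B41, B44 or B51, and the Hoxc13 call ended without B44 (limma adjusted p = 0.0921) or B51 (0.0653). Blocking on the replicate number gave a limma adjusted p of 0.119 for Hoxb9 and 0.0719 for Hoxc13. In EpiLCs 57.5% of 12692 genes were called (28.5% higher and 29% lower), Hoxd13 among those higher. It was 2.67, 3.74 and 3.45 in the D2 EpiLC lines, against 1.66, 1.43 and 2.71 in the B6 lines, a log2 difference of 0.56 (SE 0.17, limma adjusted p = 0.014). The lowest D2 line lay just under the highest B6 line, and without D55 the call ended (limma adjusted p = 0.0576). The RNA tables of both states were normalized separately, so the change of the strain difference, and not the level between states, was tested. For Hoxd13 the change of strain difference between states was 0.26 (SE 0.24, limma adjusted p = 0.405), and 36% of 11745 genes tested for that change were called (20% higher and 16% lower).

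**Figure D1:**
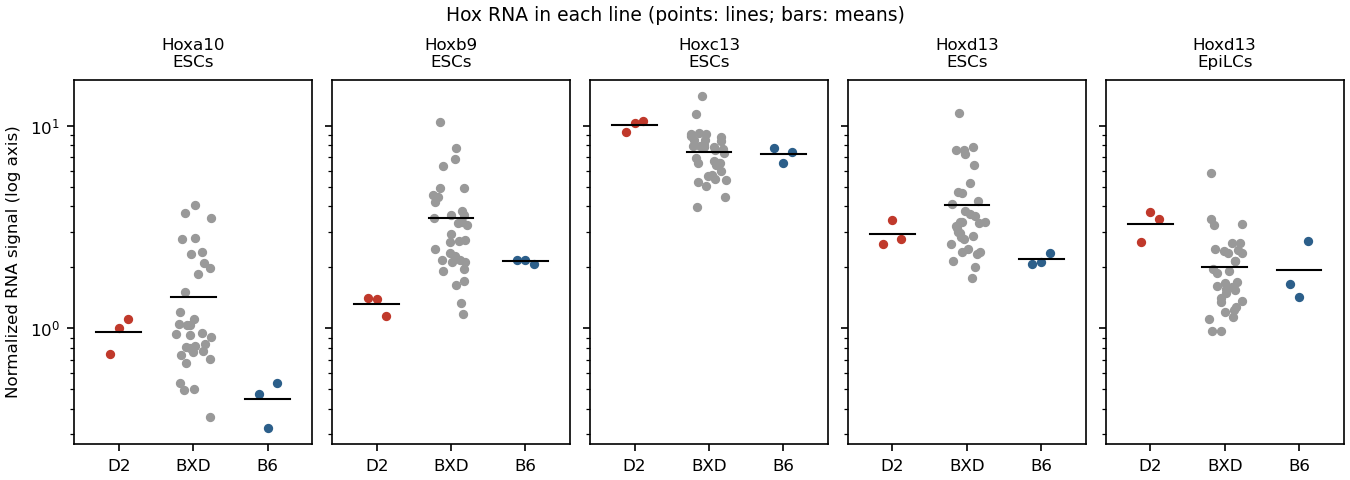
Normalized RNA signal (log axis) of 4 Hox genes in ESCs and of Hoxd13 in EpiLCs, 1 point per line, for D2, BXD and B6, with a bar at each group's mean. In ESCs every D2 line is above every B6 line for Hoxa10, Hoxc13 and Hoxd13 and below every B6 line for Hoxb9, and BXD lines of Hoxb9 run from 1.18 to 10.4.

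The F1 lines were set against the mid-point of their parents. Hoxb9 was 0.879, 1.32 and 1.21 in F116, F117 and F124. Hoxa10 (0.377 to 0.604), Hoxc13 (7.38 to 8.91) and Hoxd13 (2.04 to 2.6) in F1 lines overlapped the B6 values and lay below every D2 value. Hoxb9 had the widest distance from the mid-parent, -0.34 (SE 0.12, limma adjusted p = 0.154), and every F1 value was below every B6 value of that table (2.09 to 2.19). None of the 4 members was called against the mid-parent by limma, 1 of them had an unadjusted p under 0.05, and 3.29% of all 12700 genes were called (1.97% higher and 1.32% lower).

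The BXD lines spread further than the parents. In ESCs Hoxb9 ran from 1.18 through 2.94 to 10.4, and Hoxd13 from 1.78 through 3.34 to 11.6. Hoxa10 in ESCs ran from 0.364 through 0.946 to 4.06, Hoxc13 from 3.96 through 7.63 to 14, and Hoxd13 in EpiLCs from 0.966 through 1.7 to 5.82.

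RNA was then set against the ATAC signal of the gene's own promoter region across the 33 BXD lines, in 5 pairs of gene and state, on log2 scales. Hoxb9 in ESCs had a Pearson r of 0.65 (permutation p = 5e-05, adjusted over the 5 pairs 0.00025) and a Spearman rho of 0.73 (permutation p = 1e-05, the smallest that the shuffles allow, adjusted 5e-05). Without the 2 lines of most extreme ATAC signal r was 0.65. The other pairs did not pass, with r of 0.27 for Hoxa10, 0.33 for Hoxc13 and 0.13 for Hoxd13 in ESCs, and 0.22 for Hoxd13 in EpiLCs.

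**Figure D2:**
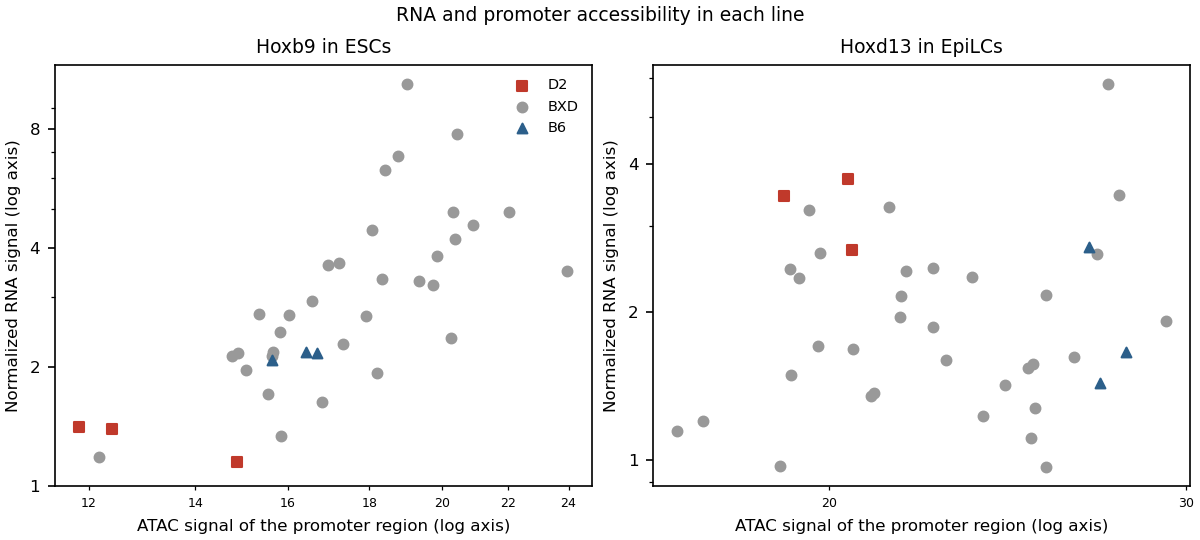
RNA signal against promoter ATAC signal (both log axes) for Hoxb9 in ESCs and Hoxd13 in EpiLCs, 1 point per line, with D2 (squares), BXD (circles) and B6 (triangles). Over the 33 BXD lines r is 0.65 for Hoxb9 and 0.22 for Hoxd13.

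Fibroblasts, which serve as feeder cells in ESC culture and express posterior Hox genes, are another possible source of Hox RNA, and the labels do not say whether the sampled cells held any. All 15 of the fibroblast genes in the ESC table were detected, and their summed signal ran from 1250 to 1760 in D2, from 489 to 5930 in BXD and from 1140 to 1470 in B6 ESCs. Across BXD ESC lines this sum went with Hoxd13 (r = 0.81, permutation p adjusted over 5 pairs 5e-05; rho = 0.74, adjusted 5e-05), Hoxa10 (r = 0.60, permutation adjusted p = 0.000483) and Hoxb9 (r = 0.58, permutation adjusted p = 0.000483). The r without the 2 most extreme lines was 0.75, 0.52 and 0.55 in the same order. For Hoxc13 r was 0.30 (permutation adjusted p = 0.0922). In EpiLCs the sum of 11 such genes had a median of 140 in D2, 91.4 (46.6 to 718) in BXD and 106 in B6 lines, with r = 0.48 for Hoxd13 (permutation adjusted p = 0.0105). The Hoxd13 value in EpiLCs rests on 2 lines, since r was 0.02 without them and rho was 0.16 with all lines (permutation adjusted p = 0.379). Between D2 and B6, D2 was higher for 2 of 15 fibroblast genes and lower for 0 in ESCs, and higher for 4 of 11 and lower for 1 in EpiLCs, where 37.6% of all genes were called in ESCs and 57.5% in EpiLCs; those named in EpiLCs are Thbs2 (log2 difference 1.25), Col1a2 (1.34) and Tagln (-1.58). The part of such cells in the Hox values was not tested, and in bulk samples fewer cells of a type and less RNA per cell cannot be told apart.

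Among genes that act with or on Hox genes, Meis2, a TALE-class cofactor, had a signal of 14.5 ± 5.04 in D2 ESCs, against 1.89 ± 0.175 in B6 ESCs, and 3.26 ± 0.233 in D2 EpiLCs, against 18.7 ± 2.27 in B6 EpiLCs (SD, n = 3 lines each). Its log2 difference was 2.37 in ESCs (limma adjusted p = 5.39e-05) and -2.20 in EpiLCs (limma adjusted p = 2.41e-08), so the sign of the strain difference turned between the states. The change itself was -4.57 (SE 0.25, limma adjusted p = 8.73e-09). Of 7 cofactors tested in ESCs 3 were higher in D2 and 4 lower, and of 8 in EpiLCs 2 were higher in D2 and 3 lower, where 37.6% of all genes were called in ESCs and 57.5% in EpiLCs. The strain difference of Pknox2 changed by 1.5 and that of Pbx3 by -1.17 between states (limma adjusted p = 9.07e-05 and 2.2e-05).

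Of 8 upstream regulators tested in each state, D2 was higher for 0 and lower for 3 in ESCs, and higher for 5 and lower for 1 in EpiLCs. These are not the same 8 genes, since 5 were tested in both states, and over all genes 17.3% were higher and 20.3% lower in ESCs and 28.5% higher and 29% lower in EpiLCs. Rara, a retinoic acid receptor, was 30.6 ± 8.78 in D2 ESCs, against 68.4 ± 4.20 in B6 ESCs (limma log2 difference -1.17, adjusted p = 0.000725), and its strain difference changed by 1.98 between states (limma adjusted p = 4.24e-05). Nkx1-2, a gene of caudal progenitors, was lower in D2 ESCs (-2.10) and in D2 EpiLCs (-2.79). For Polycomb and trithorax genes, 18 in number, D2 was higher for 6 and lower for 3 in ESCs, and higher for 5 and lower for 6 in EpiLCs. Of 6 genes tested next to or within the clusters, D2 was lower for 4 and higher for 0 in ESCs, including Ttll6 beside Hoxb13 (-1.70), and of 7 in EpiLCs D2 was lower for 4 and higher for 1, where Halr1, a noncoding RNA beside the Hoxa cluster, was the one higher (1.04). The share of all genes called was 37.6% in ESCs and 57.5% in EpiLCs, and the 11 of 18 Polycomb and trithorax genes called in EpiLCs are near it.

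In open chromatin, the Hox clusters were less accessible in D2 than in B6 EpiLCs at nearly every region, and at fewer regions in ESCs. Each cluster was taken with 5000 bases on either side (Hoxa at chr6:52150590-52265880, Hoxb at chr11:96189316-96373256, Hoxc at chr15:102916103-103041852 and Hoxd at chr2:74663310-74770142, mm10). They held 94 EpiLC regions, of which 89 were lower and 0 higher in D2, where 32.6% of all 100415 regions were lower, 25.6% higher and 58.2% called in either direction. The median log2 difference was -0.52 in the clusters and -0.05 over all regions. The 5 regions that did not pass all lay in the Hoxb cluster, near Hoxb13, Hoxb9 and Hoxb8, with log2 differences from -0.28 to -0.03. In ESCs the clusters held 83 regions, 27 of them lower and 4 higher in D2, where 24.7% of all 112226 regions were lower, 22.2% higher and 46.9% called in either direction. The median was -0.14 in the clusters and -0.00444 over all ESC regions. The regions higher in D2 ESCs were the promoters of Hoxd9 (0.29), Hoxc13 (0.21) and Hoxc12 (0.30) and an intergenic region 7030 bases from the Hoxd3 start (0.67). Among those lower, an intergenic region 1473 bases from the start of Hoxb1, a hindbrain gene, had 1.56, 1.33 and 2.36 in D2 ESCs, against 4.41, 4.64 and 3.87 in B6 ESCs (limma log2 difference -1.29, adjusted p = 9.33e-06). The promoters of Hoxb8 (-0.74), Hoxb2 (-0.71) and Hoxd3 (-0.59) were lower as well.

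**Figure D3:**
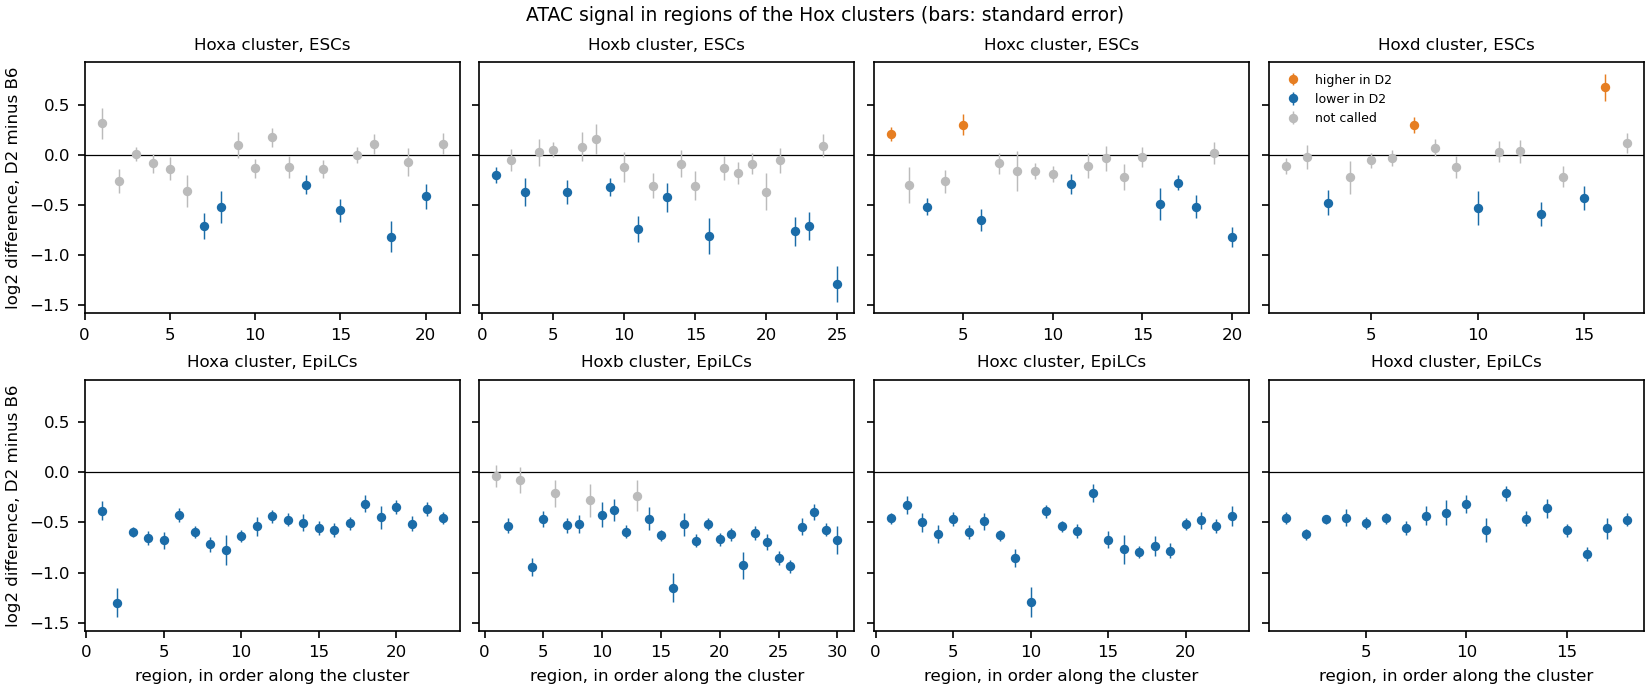
Log2 difference in ATAC signal, D2 minus B6, with its standard error, for each region of the 4 Hox clusters in chromosome order, in ESCs (top) and EpiLCs (bottom). In EpiLCs all 94 points lie below 0 and 89 are called lower in D2, while in ESCs 27 of 83 are called lower and 4 higher.

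Hox regions are rich in G and C, and GC content moved with the strain difference in EpiLCs. The median GC share was 55% in Hox EpiLC regions and 49.3% in the others. Between 50 and 55% GC the median log2 difference was -0.52 for 41 Hox regions and -0.09 for 31594 others, and between 55 and 60% GC it was -0.56 for 43 Hox regions and -0.23 for 11887 others. Above 60% GC it was -0.51 for 4 Hox regions and -0.33 for 1602 others. The share lower in D2 EpiLCs was 92.7% of Hox regions and 36.2% of others from 50 to 55% GC. It was 97.7% and 59.5% from 55 to 60% GC, and 100% and 77.3% above 60% GC, so the contrast in counts was smaller at high GC. With the difference centred within 20 bins of GC share, a step added after seeing the data, 77 Hox EpiLC regions were called. Among regions within 250 kb beyond the clusters, 52.9% of 138 were lower in D2 EpiLCs (median -0.21), and from 250 to 1000 kb 37% of 432 were (median -0.08).

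By gene, the smallest p in EpiLCs was at the promoter of Hoxb2, a hindbrain patterning gene, at chr11:96351178-96353858. The ATAC signal there was 9.99 in D29, 9.97 in D55 and 9.60 in DAC203, against 19.4 in B41, 19 in B44 and 18.5 in B51, a log2 difference of -0.94 (SE 0.07, limma adjusted p = 2.51e-17). D2 and B6 lines stood far apart. Promoters of Hoxb3 (-0.86), Hoxc6 (-0.78), Hoxb6 (-0.68), Hoxa5 (-0.63), Hoxb7 and Hoxb8 (1 shared region, -0.63), Hoxc11 (-0.63) and Hoxd12 (-0.61) were lower too, so members from the 3′ to the 5′ ends were among those lower. Promoter regions, within 1000 bases of a start, were present in the EpiLC table for 38 members, all but Hoxa6.

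Over regions that overlap by at least 50% of each between the states, 46 lay in Hox clusters, and the D2 minus B6 difference was more negative in EpiLCs than in ESCs for 27 of them and less so for 0. Over all 59318 such regions 45.2% changed in either direction, 25.8% more negative and 19.4% less, and the median change was -0.35 in the clusters and -0.05 over all. This test was added after seeing the data. Regions that changed included the promoter of Hoxc13 (-0.66), an intergenic region near Hoxd3 (-1.23) and the promoter of Hoxc12 (-0.76). The region near Hoxd3 had 8.58, 9.54 and 7.35 in D2 ESCs, against 6.08, 4.15 and 5.76 in B6 ESCs, and 5.50, 5.47 and 4.39 in D2 EpiLCs, against 7.92, 6.92 and 7.86 in B6 EpiLCs. D2 lines were thus above B6 lines in ESCs and below them in EpiLCs. The count of 27 was 20 with median-ratio scaling and 14 when centred within GC bins, and over all regions the scaling moved the split from 11512 higher and 15309 lower to 14038 higher and 11700 lower.

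The ATAC signal was also averaged over the clusters in each line. The mean log2 ATAC signal of the 94 Hox EpiLC regions was 3.04 to 3.09 in D2, 2.91 to 3.56 (median 3.27) in BXD and 3.58 to 3.65 in B6 lines. All BXD lines lay below all B6 lines, and some lay below the D2 lines. In ESCs the mean of 83 regions was 2.44 to 2.51 in D2, 2.38 to 2.79 (median 2.61) in BXD and 2.68 to 2.70 in B6 lines.

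In ESC chromatin, TRIM28, a corepressor of KRAB zinc finger proteins, was measured at 51 regions of the clusters, and 9 were called (17.65%), 5 higher and 4 lower in D2. This share is below the 38.1% of all 94211 regions that were called (19.7% higher and 18.4% lower). The Hoxb2 promoter (chr11:96351216-96353834) had a TRIM28 signal of 13 in D29, 10.6 in D55 and 12.3 in DAC203, against 4.17 in B41, 5.51 in B44 and 5.57 in B51, a log2 difference of 1.23 (SE 0.16, limma adjusted p = 3.06e-08). There the ATAC signal of D2 ESCs was lower, at 3.27, 4.35 and 5.16, against 7.20, 6.57 and 6.94 in B6 ESCs (limma log2 difference -0.71, adjusted p = 0.00035). D2 and B6 lines did not overlap in either measure. TRIM28 was also higher in D2 at the promoters of Hoxa13 (1.02), Hoxd9 (0.68), Hoxa3 (0.61) and Hoxd12 (0.44), and lower at those of Hoxb3 (-1.48) and Hoxd4 (-0.67) and at intergenic regions near Hoxb13 (-0.73) and Hoxc4 (-0.61). At the Hoxd9 promoter ATAC was higher in D2 ESCs too, so TRIM28 and ATAC did not always differ in opposite directions. Without D55, the library of greatest depth, 8 were called.

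P300, a histone acetyltransferase found at active enhancers, was called at 4 of 36 regions of the clusters (11.1%), all lower in D2. Of all 42716 regions 11.3% were called (6.17% higher and 5.16% lower), so the share called in the clusters is near that of all regions. Those called were the promoters of Hoxd3 (-1.19) and Hoxc10 (-0.88) and intergenic regions near Hoxc4 (-0.78) and Hoxc12 (-0.67). POU5F1, the pluripotency factor OCT4, was called at 2 of 42 regions (4.76%), both lower in D2. This share is below the 10.8% of all 42955 regions that were called (6.48% higher and 4.36% lower). One lies in an exon of Hoxd9 (-0.82) and one near Hoxc12 (-0.71). The intergenic site between Hoxc13 and Hoxc12, at chr15:102930966-102932763, was lower in D2 ESCs for ATAC, P300 and POU5F1. ATAC there was 16.3, 13.6 and 13.6 in D2 lines, against 21.2, 21.3 and 19.6 in B6 lines. P300 was 41.5 and 27.5 in D2, against 52.8 and 56.5 in B6, and POU5F1 was 17.4 and 14.2 in D2, against 25.7 and 27.1 in B6. No D2 value reached a B6 value in these measures. TRIM28 in the overlapping region was 6.42, 5.6 and 4.14 in D2, against 6.53, 5.51 and 6.28 in B6 lines, and was not called (limma log2 difference -0.20, adjusted p = 0.428). The site near Hoxc4 was lower in D2 for ATAC (-0.82), P300 and TRIM28. With 2 lines a strain these counts hang on single libraries. P300 calls numbered 8 without D55, 1 without B41 and 0 without B51, and POU5F1 calls numbered 0 without D55 and 1 without D29 or B51.

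After differentiation every Hox gene was detected. Of 20134 EB barcodes, 18150 had at least 1000 UMIs and at most 20% mitochondrial UMIs, with a median of 37510 UMIs, and they held 291225 Hox UMIs. No member was at 0. Hoxb2 had the most UMIs, 61719, and was seen in 62.8% of cells, followed by Hoxb6 (22493), Hoxd9 (21575), Hoxc8 (20697), Hoxc9 (19264) and Hoxc10 (16294). Next came Hoxb8 (14926), Hoxb5 (13036), Hoxb4 (12060), Hoxd11 (11333), Hoxd1 (7890) and Hoxc6 (7743). Hoxb13, the last gene of its cluster, had the fewest, 31 UMIs, each in a different cell, and Hoxc12 (71), Hoxd12 (83) and Hoxa6 (93) were nearly as rare. Anterior, central and posterior members took 32.3, 33.8 and 34.0% of Hox UMIs, and the Hoxb cluster alone took 48.3%. These counts are from 3′ ends and are not per gene length. The annotated spans of Hoxa3, Hoxc5, Hoxd3 and Hoxd4 overlap other members, so reads there may be split and their counts are less certain.

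To compare cells at 1 depth, each was thinned to 5000 UMIs, which left 17466 cells and dropped 684. Any Hox UMI was then seen in 61.7% of cells (87.9% unthinned), with a median of 1 member per cell and up to 20. Marker gates (at least 3 genes of a list with a UMI) were used to give the share of cells with Hox RNA. Any Hox UMI was in 83.6% of 1133 posterior mesoderm cells, 68.3% of 1183 endothelial, 67.5% of 4370 lateral mesoderm, 62.8% of 255 mesenchyme and 41% of 139 cardiac muscle cells. It was lower in the 78 pluripotent (25.6%), 177 erythroid (25.4%), 489 primitive streak (22.7%) and 993 endoderm cells (15.7%). Hox UMIs per 10000 gave another order, with 6.65 in posterior mesoderm, 4.49 in mesenchyme, 3.81 in lateral mesoderm, 2.83 in endothelial and 2.04 in cardiac muscle cells. Without thinning the cardiac muscle gate held 2110 cells, 95.4% of them with Hox RNA. Endoderm was then at 69.3% of 2283 cells, so the shares depend on depth. Endoderm and erythroid cells had median depths of 34800 and 40290 UMIs before thinning, against 40960 in posterior mesoderm cells. Free RNA was not measured, and its part in any of these shares was not tested.

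Hoxb2 had the highest level in each of the 10 gates that held cells, in 28.1% of posterior mesoderm, 25.4% of endothelial, 22.4% of mesenchyme and 3.52% of endoderm cells. Other members stood out by gate. Hoxb5 was in 18.3% of endothelial cells and 5.74% of posterior mesoderm cells, with 1.21% of endoderm cells beside it. Hoxc8 was in 23.7% of posterior mesoderm cells, 14.9% of mesenchyme cells, 0.676% of endothelial cells and 1.51% of endoderm cells. Hoxd11 was in 13.3% of mesenchyme cells, 7.33% of posterior mesoderm cells and 1.31% of endoderm cells. Among 66 neuroectoderm cells, Hoxb2 was in 33.3% and Hoxb1, a gene of the fourth hindbrain segment, in 7.58%, while posterior members together were in 6.06%. Gates share cells, with 53.7% of posterior mesoderm cells also in the lateral mesoderm gate, and the intervals cover counting error only. Gates and the following comparisons come from cells of 1 library, so no test was made.

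In the pooled cells and in each D column, cells with Tbx4, a gene of the hindlimb and allantois, more often held posterior Hox RNA. A Tbx4 cell here has a Tbx4 UMI after thinning, and 1575 cells held one before thinning. Of 349 Tbx4 cells 85.7% held any Hox UMI (95% binomial interval 81.6 to 89.2), against 61.2% of 17117 cells without Tbx4. Posterior members were in 63.3% of Tbx4 cells, against 25% without, central members in 59.9%, against 33.7%, and anterior members in 38.7%, against 37.4%. Among members whose intervals did not overlap, the largest ratios were in the Hoxa cluster, with Hoxa9 in 15.5% of Tbx4 cells, against 2.79% without, Hoxa11 in 6.59%, against 1.37%, Hoxa13 in 7.16%, against 1.54%, and Hoxa10 in 12%, against 2.83%. Hoxd11, posterior too, was in 5.44% of Tbx4 cells, against 4.79%, and its intervals overlapped. In all, the binomial intervals of 16 of 39 members lay above those of cells without Tbx4 and 0 lay below. Of the 24 members in at least 1% of thinned cells 15 lay above, where of all 10857 such genes 5.84% lay above, 5.95% below and 11.8% in either direction. The share of posterior members was higher in Tbx4 cells in 10 of 12 hash columns, with 5 to 71 Tbx4 cells in a column. In D columns it was 59.1 to 76.1% of Tbx4 cells, against 14.4 to 30.2% of cells without. In B columns, with few Tbx4 cells, it went both ways. It was lower with Tbx4 in B1 (14.3%, against 33.6%, 7 Tbx4 cells) and B3 (20%, against 31.9%, 5 Tbx4 cells). In B2 it was higher (50%, against 37.4%, 10 Tbx4 cells). By member the share was higher in 10 columns for Hoxa9 and Hoxa13, in 9 for Hoxa10 and in 5 for Hoxa11. Of the 3 B columns it was higher in 2 for Hoxa9, 1 for Hoxa13 and 0 for Hoxa10 and Hoxa11.

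Hand1, a gene of lateral plate and extraembryonic mesoderm, was in 9691 thinned cells, and 66.6% of these held any Hox UMI, against 55.6% of 7775 cells without. The level ran the other way, at 3.84 Hox UMIs per 10000 in Hand1 cells and 4.15 in cells without. Posterior members were lower with Hand1 (1.06, against 1.79). Anterior (1.39, against 1.11) and central members (1.39, against 1.25) were higher. Members went both ways. Hoxb6 was in 16.9% of Hand1 cells, against 4.84% without, and Hoxb2 in 31.8%, against 20.2%. Hoxd11 ran the other way, in 2.34% of Hand1 cells, against 7.86% without, as did Hoxc10 (4.6%, against 8.13%) and Hoxa5 (0.681%, against 2.56%). The intervals of 6 members lay above and of 16 below those of cells without Hand1. Of the 24 members in at least 1% of thinned cells 6 lay above and 9 below, where of all 10857 such genes 23.6% lay above, 30.7% below and 54.2% in either direction. These shares pool hash columns that differ both in Hand1 and in Hox RNA. Within columns, Hoxb6 was higher with Hand1 in 12 of 12 and Hoxd11 lower in 12 of 12. Hoxb2 was higher in 9, while Hoxc10 was lower in 7 and Hoxa5 in 9. Any Hox gene was higher with Hand1 in 8 of 12 columns, namely every D column and C1, and lower in every B column and CB. The share of any posterior member split between the same columns, although Hoxd11 and Hoxc10 were lower in the pooled cells. In D columns that share was 17.14 to 33.53% of Hand1 cells, against 11.93 to 29.83% without. In B columns it was 22.25 to 29.75% of Hand1 cells, against 36.34 to 40.81% without. The pooled difference in the share of cells with any Hox UMI thus had the direction of the D columns and not of the B columns.

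Tnnt2, cardiac troponin T, marked 737 thinned cells, of which 56.7% held any Hox UMI, against 61.9% of 16729 cells without. Hoxd10 (5.43%, against 3.53%) and Hoxd11 (7.06%, against 4.70%) lay above, and Hoxb6 (7.19%, against 11.7%), Hoxb8 (6.11%, against 8.64%) and Hoxb2 (22.8%, against 26.8%) below. These were the 5 members whose intervals did not overlap. Of the 24 members in at least 1% of thinned cells 2 lay above and 3 below, where of all 10857 such genes 10.7% lay above, 5.91% below and 16.7% in either direction. Members without overlap were thus about as common as among all genes. Columns differ in their share of Tnnt2 cells, and within columns Hoxd11 was higher with Tnnt2 in 4 of 12 and Hoxd10 in 6. The share of any posterior member was higher in 3 of 12. Hoxb6 and Hoxb8 were lower in 8 of 12 columns and Hoxb2 in 4. The difference in any Hox UMI was not stable in direction. It was higher with Tnnt2 in 6 of 12 columns, and without thinning it was 8.68 percentage points higher, where Tnnt2 cells had a median of 44490 UMIs, against 35730 in cells without.

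**Figure D4:**
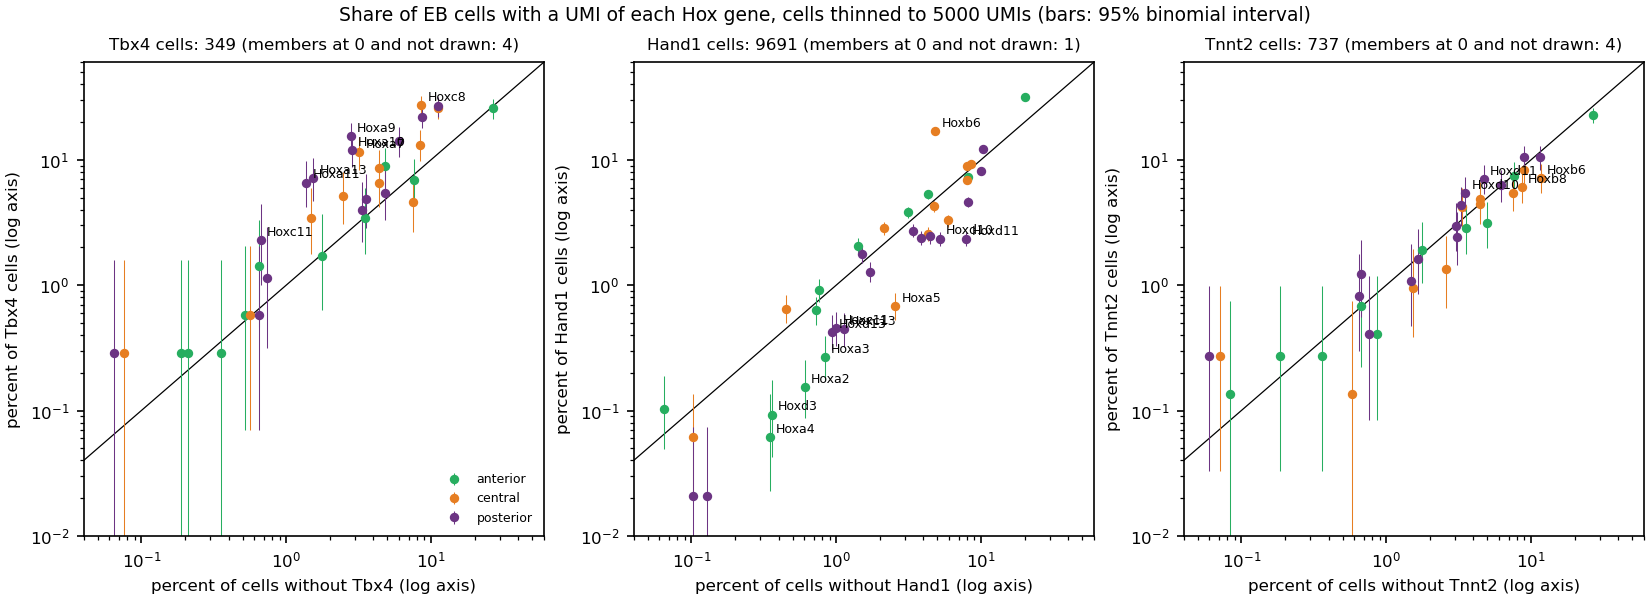
Percent of thinned EB cells with a UMI of each Hox gene, in cells with Tbx4, Hand1 or Tnnt2 (vertical) against cells without (horizontal), on log axes with 95% binomial intervals and colour by paralog group; the line marks equal shares. Of the posterior members 8 have intervals above those of cells without Tbx4, where Hoxa9 is in 15.5% against 2.79%, and several lie below the line for Hand1, where Hoxd11 is in 2.34% against 7.86%.

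Hox RNA differed between hash columns, as did the RNA of most genes. Of the 18150 cells, 15838 were given to the column with the largest hash count, where that was at least 2 times the second, and 2312 to none. Levels are Hox UMIs per 10000 UMIs of all cells of a column. Hoxd11 was 0.0632 in D1, 0.0653 in D2, 0.0309 in D31, 0.0453 in D32, 0.0392 in D331, 0.0506 in D332 and 0.0654 in D333, against 0.201 in C1, 0.290 in CB, 0.400 in B1, 0.450 in B2 and 0.353 in B3. The highest D column was far below the lowest B column, with C columns between them. Hoxb6 was 0.393 in D1, 0.404 in D2, 0.292 in D31, 0.459 in D32, 0.493 in D331, 0.497 in D332 and 0.462 in D333, against 0.0558 in C1, 0.0696 in CB, 0.127 in B1, 0.133 in B2 and 0.112 in B3. Here every D column stood above every B and C column. Hoxb2 was 0.842 to 1.22 in D, 0.391 to 0.402 in C and 0.505 to 0.523 in B columns.

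Over all 39 members, the D columns were all above the B columns for 4 (Hoxb2, Hoxb5, Hoxb6 and Hoxd1), all below for 18, and overlapped for 17. Among the 13737 genes in at least 1% of cells, 28.8% had D above B and 35.4% D below B, so 64.2% did not overlap. Among the 34 members in at least 1% of cells the counts were 4 above, 15 below and 15 overlapping. Columns without overlap were thus less common among members than among all genes, with a smaller share above and a larger share below. Of 13 posterior members in at least 1% of cells, 0 were above and 5 below, and the share below is near that of all genes. Hoxb9 was 0.0283 to 0.0557 in D, 0.0577 to 0.0696 in C and 0.170 to 0.182 in B columns, and Hoxa5 was 0.0109 to 0.0166 in D, 0.0264 to 0.0417 in C and 0.0590 to 0.0687 in B columns. Hoxd9 (0.201 to 0.375 in D, against 0.328 to 0.384 in B) and Hoxb4 (0.147 to 0.199 in D, against 0.158 to 0.176 in B) overlapped. The columns also differed in the cells they held, with Hand1 in 62.5 to 73.6% of D, 30.4 to 36.1% of C and 29.8 to 34.2% of B cells, and Tnnt2 in 1.70 to 2.44%, 7.52 to 10.2% and 7.59 to 8.73% in the same order. Whether these shares carry the Hox differences was examined for Hand1 only.

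Cells without Hand1 are those with no Hand1 UMI after thinning. Before thinning 14335 kept cells held a Hand1 UMI and only 3815 did not, so the split does not part the cells cleanly by Hand1. Within Hand1 cells and also within cells without Hand1, Hoxd11, Hoxc9 and Hoxc10 were lower in all D than in all B columns, and Hoxb2, Hoxb5 and Hoxd1 were higher in all D columns. Hoxd11 was 0.0171 to 0.0519 in D and 0.155 to 0.265 in B columns within Hand1 cells, and 0.0476 to 0.171 in D and 0.455 to 0.666 in B columns without Hand1. Hoxb6 was above in D columns within Hand1 cells (0.391 to 0.649 in D, 0.112 to 0.207 in B) and overlapped without Hand1 (0.0877 to 0.260 in D, 0.0667 to 0.133 in B). Hoxd9, Hoxc8, Hoxb8 and Hoxc6 were lower in all D columns among cells without Hand1 and overlapped within Hand1 cells. The sum over posterior members did likewise, at 0.593 to 1.41 in D and from 1.27 upwards in B columns within Hand1 cells, and from 0.502 to 1.497 in D and from 2.64 upwards in B columns without Hand1. Hoxb4 overlapped in both. Doublets were not called.

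**Figure D5:**
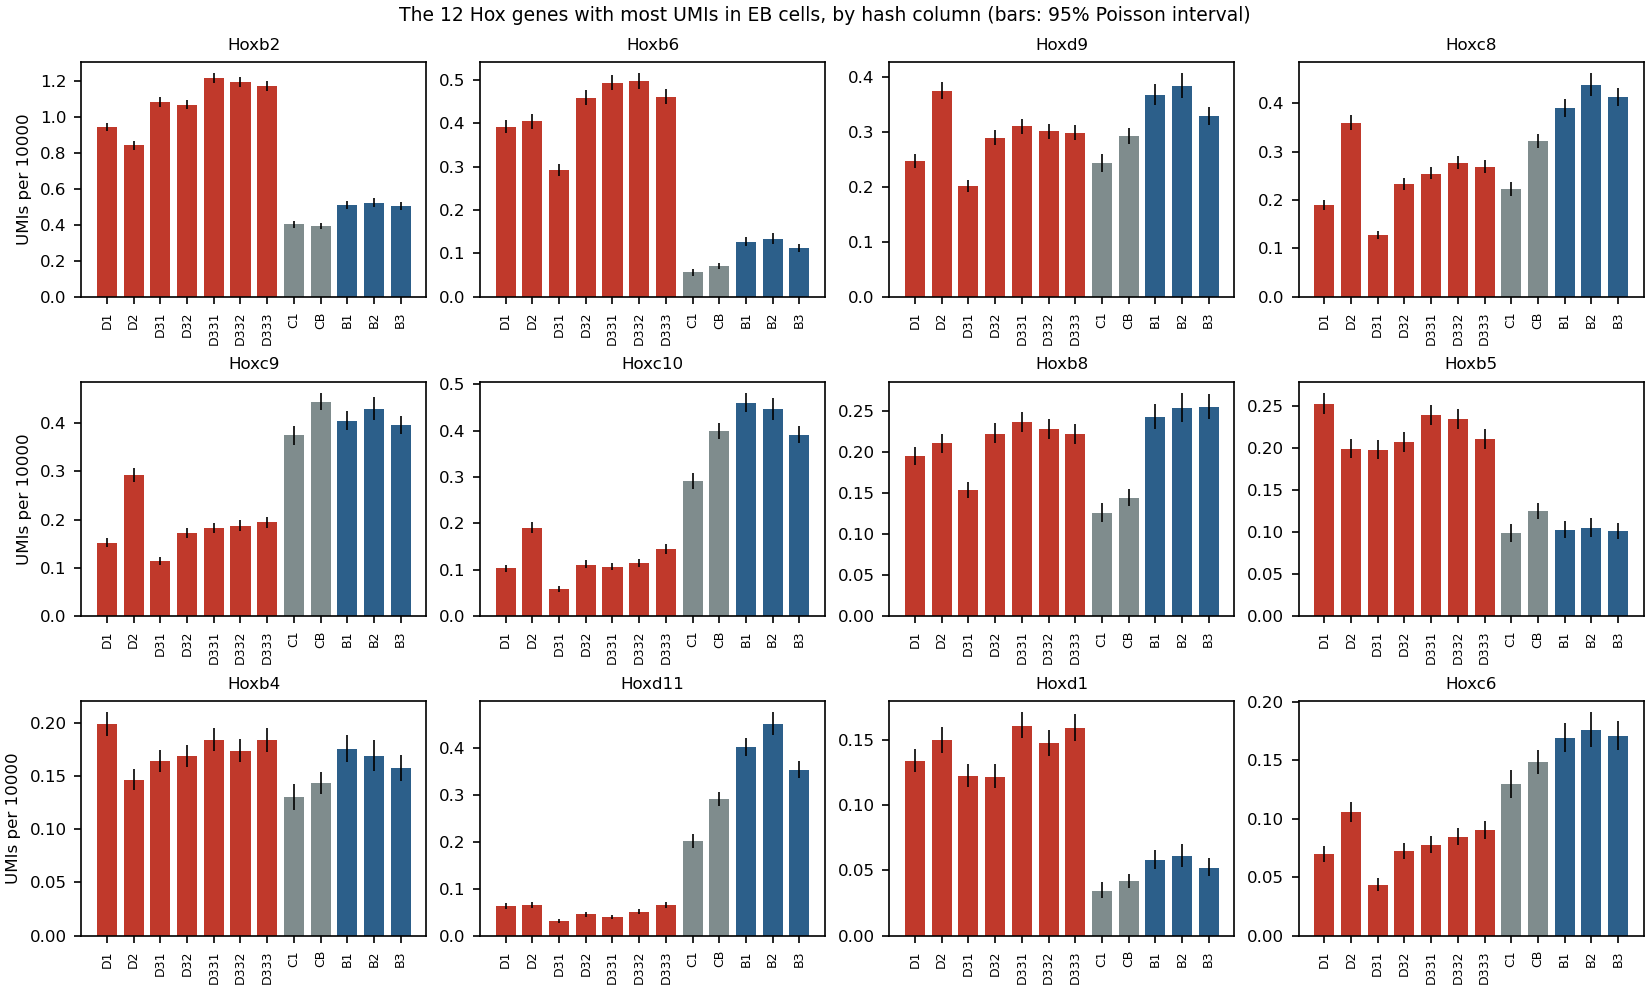
UMIs per 10000 of the 12 Hox genes with the most UMIs in EB cells, by hash column (D red, C grey, B blue), with 95% Poisson intervals for counting error only. Hoxb2, Hoxb6, Hoxb5 and Hoxd1 are higher in all D than in all B columns, and Hoxd11 is 0.0309 to 0.0654 in D and 0.353 to 0.450 in B columns.

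Members also differed in which cells they shared. Among the 12 members with the most UMIs, Hoxc10 and Hoxd11, 5′ genes of different clusters, were seen together in 426 thinned cells, where independence at their overall shares would give 51.7, a ratio of 8.24. Hoxd11 with Hoxc6 (6.25) and Hoxc10 with Hoxc6 (5.58) followed, and Hoxb2 with Hoxd11 had the lowest ratio, 0.654 (146 cells, against 223.2). The median ratio was 2.21 over 19 pairs of 1 cluster and 1.68 over 47 pairs of different clusters. Ratios share a library and the mix of cell types.

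Outside the family, the genes most enriched in the 2428 thinned cells with at least 2 UMIs of posterior members, against 12964 cells with none, were Hoxaas3 (47.4 times, in UMIs per 10000) and Hoxb5os (34.4 times), noncoding RNAs transcribed within the Hoxa and Hoxb clusters. They were followed by Epha5, an ephrin receptor (16.3 times), 2610528A11Rik, Csdc2, Ly6a (11.9 times), Mctp1, Adgra1, Nupr1, Pcp4l1, Rtn4r, Lefty2, Igfbp7, Insl6 and Mgp (7.19 times). Of the 11 upstream regulators in at least 1% of cells, Gdf11, which sets the trunk to tail transition, was 3.69 times as high in those cells. Cdx2 was 2.99 times, Rarg 2.58 times, Wnt5a 2.46 times, Evx1 2.28 times, Nkx1-2 2.26 times and T 1.52 times as high. Rara was near equal (0.990 times). Fgf8 (0.693 times), Wnt3 (0.586 times) and Cyp26a1, which breaks down retinoic acid (0.340 times), were lower. Some rarer regulators had larger ratios on few UMIs, as Cdx4 (11.8 times, 457 UMIs in all) and Aldh1a2 (8.16 times, 918 UMIs). Others did not, as Rarb (1.09 times, 872 UMIs). Cofactors had ratios from 0.770 (Pbx3) to 1.87 (Meis2). Such cells were 5.85 to 17.6% of D, 15 to 16.3% of C and 20.1 to 23.5% of B columns, so that these ratios also carry the difference between columns.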

How the data were processed

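The members, lists and tests were chosen with earlier results of these data known. The authors deposited normalized RNA, ATAC and ChIP values per gene or region, used here as a signal; Cell Ranger, MACS 1.4.2, HISAT2 2.0.5 and Bowtie 1.0.0 stand in the submitters' processing notes with the build mm10 and no roles, and which program counted reads is not stated in what was used here. The EB counts are UMI counts from Cell Ranger 3.1.0 per the file headers, and the hash counts were deposited as a table. Comparisons used limma 3.58.1 in R 4.3.3 on log2(signal + 1) for RNA (mean of at least 0.5), P300 and POU5F1, and on log2(signal + 0.1) for ATAC and TRIM28, over the lines of the groups compared. Values of ATAC and TRIM28 came out as whole reads for 100% of values (within 0.01), and edgeR 4.0.16 was run on those reads as an alternative. The strain difference between states was an interaction in limma. BXD relations used 100000 shuffles. EB values used Python 3.11.15, numpy 2.4.6 and scipy 1.17.1, with exact Poisson and binomial 95% intervals that cover counting error only. Regions were annotated with GENCODE M21. Samples of 1 number in D2 and B6 were checked for pairing: their deviations correlated from -0.391 to 0.0441 where there were 3 pairs and by 0.103 with 2 (P300), so the number was not taken as a pair. Named were members called in a comparison or among the 5 highest of a state, promoter regions of members and up to 10 cluster regions of smallest adjusted p, the 12 members with most EB UMIs and any at 0, list genes called beyond 1 in log2, and the 15 genes most enriched in cells with posterior members; rare members and regulators, non-promoter regions beyond the 10 and the state genes were named after their values were seen. Other scalings, pseudocounts, filters, GC bins and left-out lines were tried. Limma was tested on simulated data with known changes in a small share of the features. There the share of false calls was near the nominal level for RNA and above it for ATAC, TRIM28 and P300, so adjusted p-values of these regions may be too small. Far fewer features were changed there than were called in the data, so the size of that share does not carry over. F1 ATAC was not used. Results of some genes and regions are not reported here.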

Additional observations from a re-analysis of the deposited data

Results flagged for a closer look

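Strain differences that changed between EpiLCs and ESCs by the test of that change are listed here as log2 values of the D2 minus B6 difference in EpiLCs minus that in ESCs. For RNA the change was -4.57 for Meis2, 1.5 for Pknox2, -1.17 for Pbx3 and 1.98 for Rara. Of the fibroblast genes it was 1.01 for Thbs2 and 1.25 for Col1a2. For ATAC 27 Hox cluster regions changed, all towards a lower D2 value in EpiLCs, where 45.2% of all regions changed. Groups of 2, 3 or 33 lines were not examined for single outlying lines.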

How the results depend on the processing

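Over the main results and their other settings, 122 outcomes stayed the same, 18 moved and 1 turned in sign. Those that changed lay in RNA, P300, POU5F1, the ATAC change between states and the EB marker shares. For ESC RNA, 2 Hox genes were called by limma, 0 with the replicate number as a block (Hoxb9 and Hoxc13 adjusted p = 0.119 and 0.0719), and 0 to 2 without 1 line. With the replicate block the counts were 1 for EpiLC RNA, 29 for ESC ATAC, 88 for EpiLC ATAC, 9 for TRIM28 and 4 for P300, so no other count moved by over 1.5 times. The numbers are not taken to pair the lines, and no block could be fitted for POU5F1, whose D2 libraries share 1 number. Without 1 line the counts ran from 0 to 1 for EpiLC RNA, 22 to 34 for ESC ATAC, 87 to 89 for EpiLC ATAC, 8 to 10 for TRIM28, 0 to 8 for P300, 0 to 2 for POU5F1 and 22 to 27 for the ATAC change between states. Over the other alternatives the EpiLC ATAC count was 77 to 89 and the ESC ATAC count 24 to 32, the TRIM28 count was 6 (without the regions of lowest mean) to 10, and edgeR on recovered reads called 31 ESC ATAC, 88 EpiLC ATAC and 10 TRIM28 regions. Centring within GC bins gave 14 regions for the change between states in place of 27, and turned the sign of the EpiLC ATAC difference at the Hoxd4 promoter (0.00417) and of the change between states at the Hoxb9 promoter (0.11); the cause was not tested. In EB cells the difference in any Hox UMI was 24.5 percentage points for Tbx4 and 10.9 without thinning, 11 for Hand1 with 13.3 where 2 UMIs were asked and 17.2 without thinning, and -5.21 for Tnnt2 with -24.6 where 2 UMIs were asked and 8.68 without thinning. Depth differs between the cells compared where they are not thinned. Low RNA signals near 1 and Hox genes with under 100 UMIs limit what could be seen.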
